A study of Glycine max with 9 samples.

Results

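Soybean (Glycine max, genotype given as willam 82) root hair cells were compared at 2 ages. The 48h group was labelled 312 hours old, counted from sowing, and the 24h group 288 hours old. The comparison uses 6 of the 9 libraries of the series, 3 per group, chosen by their titles alone. The plants of every group grew in an ultrasound aeroponic system, in which roots hang in mist, and the labels name no transgene or treatment. The groups are 24 hours apart by their labelled ages. If the plants were sown at the same hour, which the labels do not state, both groups were collected at the same hour of the day. Nothing says whether libraries of 1 group came from separate plants, so the p-values below measure the spread between these libraries only. The deposited table holds 56044 gene IDs as FPKM, the fragments of a gene divided by its transcript length and by the total mapped in that library, and its name speaks of tissue culture where the labels say root hair cells. Of these IDs, 30444 had at least 1 FPKM in at least 3 of the 6 libraries and were tested. Among the 25600 that were not, 10738 were listed at 0 in all 6. At the edge of this filter, the gene just inside had 1.00005 FPKM in its third-highest library and the gene just outside 0.999727 FPKM, and 563 genes lay between 1 and 1.1 FPKM against 596 between 0.9 and 1 FPKM.

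Root hairs are tubular outgrowths of single epidermal cells. They extend at the tip, where vesicles deliver new membrane and wall material, and they widen the surface through which a root takes up water, phosphate and nitrate. In legumes they are also the cells through which rhizobia enter the root at the start of nodulation. The files do not pair gene IDs with names, and 0 of the 56044 IDs matched the RefSeq table of Glycine_max_v4.0, so most genes are described here by their number, level and direction. The label root hair cells could for the same reason not be checked against marker genes. In RNA from many cells, fewer cells of a type and less RNA per cell cannot be told apart.

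The libraries of the 48h group were closer to each other than those of the 24h group. Across the 30444 tested genes, Pearson correlations of log2 values between libraries ran from 0.9682 to 0.9723 within 48h and from 0.9242 to 0.9515 within 24h. The median SD of a gene was 0.336 log2 units at 24h and 0.165 at 48h (n = 3 each), and the SD was larger at 24h for 80.1% of genes. 24h replicate 1 was the 24h library nearest to the 48h group, with correlations of 0.9352, 0.9468 and 0.9588 with the 48h libraries. Within 24h, it correlated at 0.9515 with replicate 2 and 0.9242 with replicate 3, and replicates 2 and 3 at 0.9294. On the first principal component, which held 58.4% of the variance, it scored -6.42, between the other 24h libraries (-97.7 and -59.8) and the 48h libraries (40.6 to 63.8). Genes above 0 FPKM numbered 41535, 40885 and 37256 in the 24h libraries and 41780 to 42430 in the 48h libraries. Read totals are not part of FPKM, so the depth behind these counts is unknown, and its part in the results was not tested. Among tested genes, 498 were listed at 0 in 24h replicate 3, against 46 to 139 in the other 5 libraries.

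Relative transcript levels differed in both directions between the 24h and 48h libraries. Median-of-ratios scaling divides each library by the median ratio of its genes to their geometric means over the libraries. On log2(FPKM + 1) after this scaling, 4186 of 30444 genes passed limma's test at a Benjamini-Hochberg adjusted p under 0.05, which is 13.7%. Of these, 2340 were higher at 48h (7.69% of tested genes) and 1846 were lower (6.06%). Their changes were moderate in size. The median log2 change was 0.99 for the genes called higher and -1.06 for those called lower, the smallest called change was 0.598 log2 units, and 36 genes rose and 31 fell by more than 2 log2 units. At an unadjusted p under 0.05, 11590 genes (38.1%) differed, 6191 higher and 5399 lower. The 3 libraries of one group lay all above or all below those of the other for 13890 genes (45.6%), 7191 higher at 48h (23.6%) and 6699 lower (22%).

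**Figure D1:**
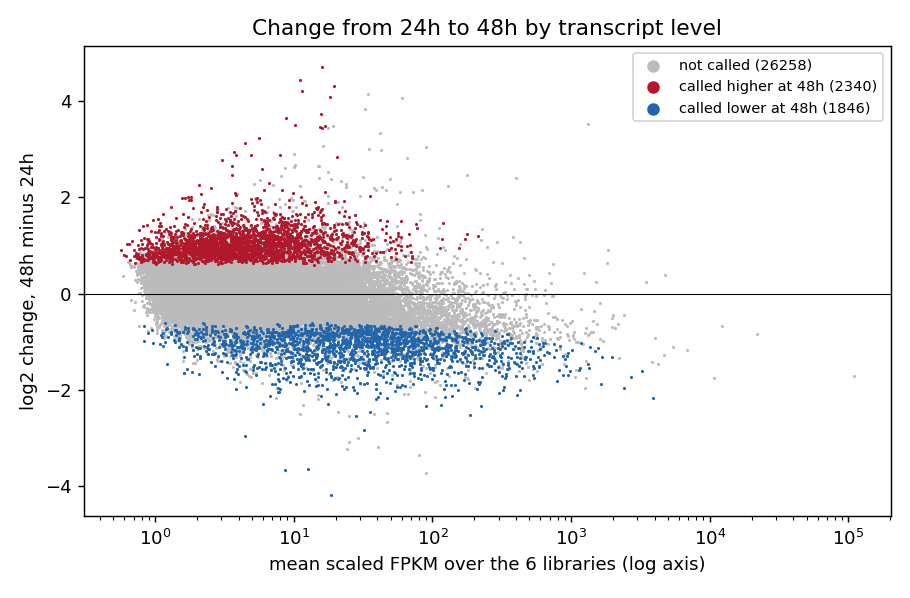
Each point is 1 of the 30444 tested genes, with its mean scaled FPKM over the 6 libraries (x, log axis) and its log2 change from 24h to 48h (y). The 2340 genes called higher lie mostly at low levels, and the 1846 called lower reach to the highest levels.

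The number of calls depended on single libraries. The calls sat close to the threshold, with a lowest adjusted p of 0.0163 and 67.2% of them above 0.04 (limma). Leaving out 24h replicate 1, the library nearest to the 48h group, gave 8941 calls. Leaving out 24h replicate 2 gave 2, leaving out 24h replicate 3 gave 3561, and leaving out 48h replicates 1, 2 and 3 gave 0, 3 and 18 (limma, adjusted p under 0.05). Before adjustment, the same 6 fits had 7303 to 13640 genes with p under 0.05. With the 3 libraries of the 12h group in the same fit, 0 genes passed and 5427 had an unadjusted p under 0.05. The split between directions depended on the scaling. As deposited, 79.4% of 5653 calls were higher at 48h, against 55.9% of 4186 after median-of-ratios scaling, which moved the median change of all tested genes from 0.225 to -0.0033 log2 units.

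**Figure D2:**
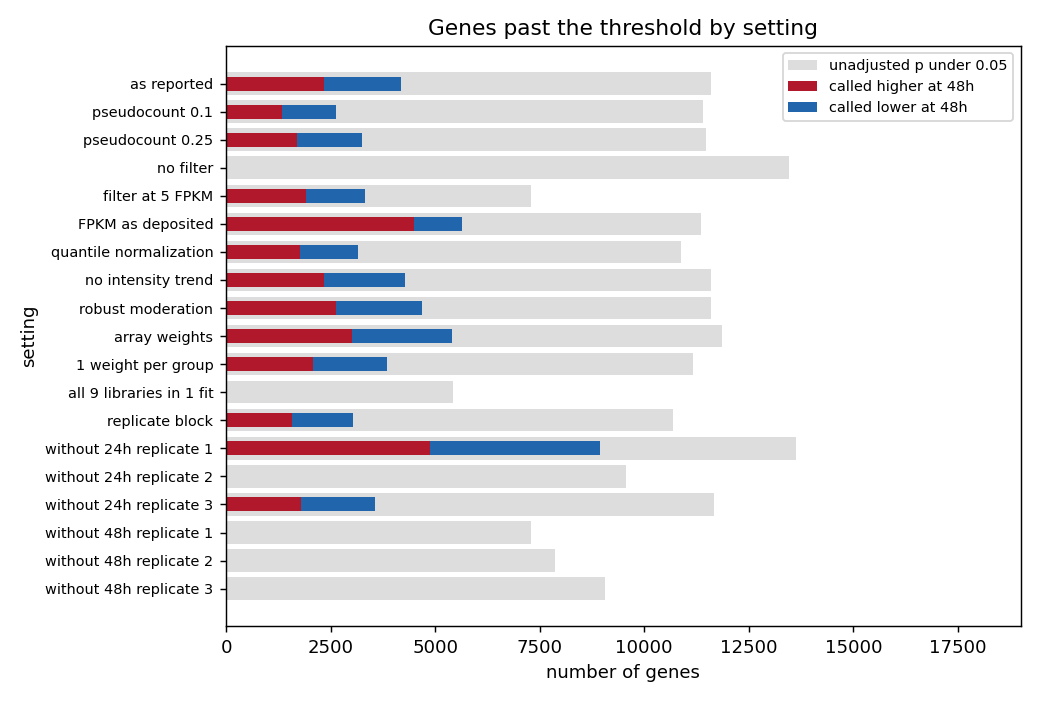
Bars give the number of genes (x) under each setting (y): wide grey bars those at an unadjusted p under 0.05, narrow coloured bars those called at an adjusted p under 0.05, higher (red) and lower (blue) at 48h. Calls range from 0 to 8941, while the unadjusted counts of the fits that leave out 1 library range from 7303 to 13640.

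Abundant transcripts were called lower at 48h more often than higher, and rarer ones the other way round, a pattern described here by counts and medians without a test. Among the 1377 genes with a mean of at least 100 scaled FPKM, 364 were called lower at 48h (26.4%) and 7 higher (0.508%), and their median log2 change was -0.77. Among the 5109 genes from 20 to 100 scaled FPKM, 724 were called lower and 155 higher, with a median of -0.35. The 10795 genes from 5 to 20 scaled FPKM had a median of 0.00, with 862 called higher and 523 lower. Below that the direction turned. Of the 8100 genes from 2 to 5 scaled FPKM, 861 were called higher (10.6%) and 175 lower (2.16%), and of the 5063 genes under 2 scaled FPKM, 455 were called higher (8.99%) and 60 lower (1.19%), with median changes of 0.16 and 0.20. The genes called lower had a median level of 28.7 scaled FPKM and those called higher one of 4.26, against 6.31 for all tested genes.

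This order of the level classes was kept with any 1 library left out of the fit. The classes themselves were set by the mean over all 6 libraries, so they were not free of the library left out. With each of the 6 libraries left out in turn, the median change of the class at 100 scaled FPKM or more lay between -0.90 and -0.61, and that of the class under 2 between 0.18 and 0.22. In every one of these fits no more than 11.9% of the genes in the highest class had a positive change. As deposited, the medians of the highest and lowest class were -0.48 and 0.35. Quantile normalization, which gives all libraries the same distribution of values, left medians of -0.06 and -0.04, and 3164 genes still passed (limma, adjusted p under 0.05), 1770 higher and 1394 lower. Of these 3164, 2418 were among the 4186 and had the same direction.

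**Figure D3:**
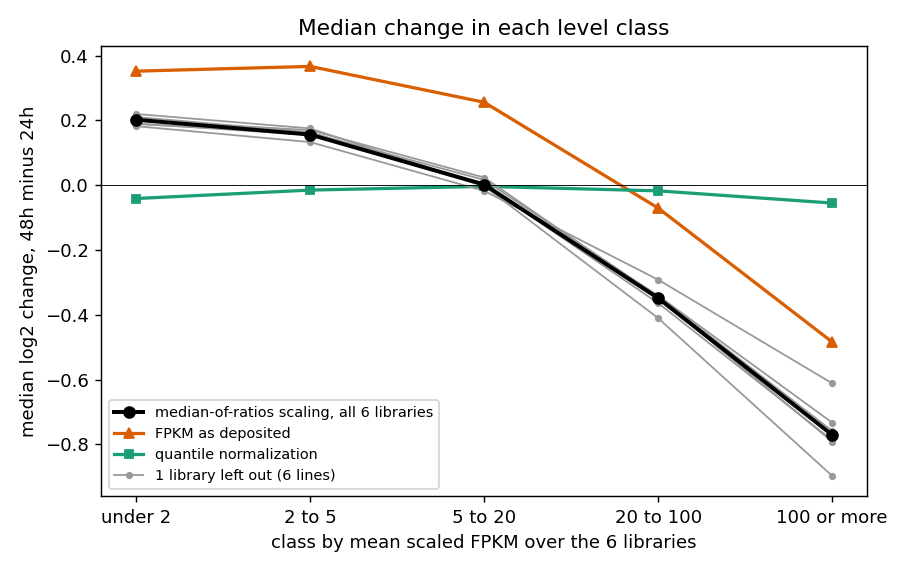
Lines join the median log2 change from 24h to 48h (y) of 5 classes of genes by mean scaled FPKM (x). The median falls from 0.20 under 2 scaled FPKM to -0.77 at 100 or more, in the same order with any 1 library left out (grey), and is near 0 throughout after quantile normalization (green).

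The same difference is seen in how the FPKM sum of a library is shared out. The 1377 genes of the highest class held 62.7%, 66.7% and 69.3% of the sum in 24h replicates 1, 2 and 3, and 54.6%, 55.0% and 52.7% in the 48h libraries. The 100 highest genes of each library held 36.5% ± 2.96 of the sum at 24h against 26.1% ± 3.11 for the 48h group (SD, n = 3 each). Both measures were higher in each of the 24h libraries than in any 48h library. The exact two-sided permutation p of the share of the 100 highest genes was 0.1, the smallest that 3 against 3 libraries can give. Since FPKM are relative to all fragments mapped in a library, less of the abundant transcripts and more of the others cannot be told apart.

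A small set of genes was listed at 0 throughout the 24h group. There were 24 genes listed at 0 in all 24h libraries with at least 1 FPKM in every 48h library, and 0 genes with the opposite pattern. These 24 passed the filter through the 48h libraries alone, and all were called higher, which their choice makes likely. Their values in the 48h libraries ran from 0.939 to 79.5 scaled FPKM, and the median of their 48h means was 3.89. A value of exactly 0 in a table of this kind can also be a failed estimate. In the 12h group, which has no part in this choice, 10, 19 and 8 of the 24 were listed at 0 in replicates 1, 2 and 3, and 2 were listed at 0 in all of these.

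The largest rises among genes with a mean of at least 5 scaled FPKM and no overlap between the groups belonged to this set. Glyma.10G003900 was listed at 0 in all 24h libraries and had 39.96, 47.6 and 7.78 scaled FPKM in 48h replicates 1, 2 and 3. Glyma.08G230300 was also listed at 0 in all 24h libraries and had 23.6, 30.7 and 11.8 scaled FPKM at 48h. For both, 48h replicate 3 was the lowest of its group. In 12h replicates 1, 2 and 3, scaled by factors from all 9 libraries, Glyma.10G003900 had 25.2, 92.2 and 76.1 scaled FPKM. Glyma.08G230300 had 12.6, 0 and 44.0 there. Both genes thus had values above 0 at the youngest age too. No fold is given for them, because 1 group is at 0.

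The largest falls by the same rule were those of Glyma.08G108100 and Glyma.20G224900. The first had 13.6, 61.5 and 31.3 scaled FPKM in the 24h libraries, was listed at 0 in 48h replicates 1 and 2 and had 4.004 scaled FPKM in 48h replicate 3 (fitted log2 change -4.17 ± 0.71 SE). The second had 5.51, 39.1 and 7.26 scaled FPKM at 24h and 0.0510, 0.000105 and 6.87e-06 scaled FPKM at 48h (fitted log2 change -3.67 ± 0.60 SE). In both, 24h replicate 2 was the highest library by a wide margin. All 4 genes passed the filter through the group in which they were high and were chosen by the size of their change, so their values are a description and no p is given. They were not called with no filter, in the fit of all 9 libraries or without 48h replicate 1. Without 48h replicate 2 all but Glyma.08G230300 were not called, without 24h replicate 2 all but Glyma.20G224900, and without 48h replicate 3 Glyma.20G224900 was not called.

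Beyond single IDs, a few lists of loci were followed whose members come from published soybean locus names. No annotation at hand could be used to check these names. The morning clock list holds 4 loci published as LHY genes. In Arabidopsis LHY is a MYB-type factor that peaks around dawn and represses evening genes. All 4 were higher at 48h in every library than in any 24h library, as were 23.6% of all tested genes, and 1 of 4 passed over all genes as higher, against 7.69%. Glyma.07G048500 had 9.98, 1.63 and 4.802 scaled FPKM at 24h and 22.9, 18.3 and 15.6 at 48h, and rose by 1.84 ± 0.46 log2 units (SE, limma adjusted p = 0.0427). Glyma.16G017400 had 67.8, 9.46 and 33.0 scaled FPKM at 24h and 179, 114 and 102 at 48h (log2 change 2.15 ± 0.60 SE, limma adjusted p = 0.0503). Glyma.19G260900 had 10.1, 0.856 and 3.86 scaled FPKM at 24h and 22.0, 10.2 and 15.4 at 48h (limma adjusted p = 0.0674). Glyma.03G261800 had 15.8, 0.590 and 5.60 scaled FPKM at 24h and 45.2, 19.2 and 25.4 at 48h (limma adjusted p = 0.0634).

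In each of these 4 loci, 24h replicate 1 was the highest and 24h replicate 2 the lowest of the 24h libraries. The median log2 change of the list was 1.99, against -0.0033 for all tested genes. All 4 passed without 24h replicate 1 (median change 2.60), with FPKM as deposited, with array weights and with the replicate number as a block. In these fits 29.4%, 18.6%, 17.7% and 9.95% of all tested genes were called in either direction. With a pseudocount of 0.1 or 0.25, 0 of the 4 passed, against 8.67% and 10.7% of all tested genes. With no filter and with all 9 libraries in 1 fit, 0 of the 4 and 0 of all tested genes passed. The remaining fits of all 6 libraries called 1 or 2 of the 4. With any library other than 24h replicate 1 left out, 0 of the 4 passed in each fit (median change 1.35 to 2.15). Of all tested genes, 11.7% were called without 24h replicate 3 and at most 0.0591% in the rest. The 0 in the fits with at most 0.0591% called therefore says little about these loci. Without 24h replicate 3, the lowest limma adjusted p of the 4 was 0.0586.

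The evening clock list holds 7 loci published as evening-phased clock genes, of which 6 were tested, 0 passed in either direction, against 13.7% of all tested genes, and 2 had a positive change (median log2 change -0.17; limma adjusted p 0.135 to 0.840). Glyma.11G136600 came nearest, with 2.38, 8.15 and 2.71 scaled FPKM at 24h and 1.504, 1.81 and 1.94 at 48h, and an interval of the log2 change from -1.66 to 0.01. Its groups did not overlap, and those of Glyma.04G166300 did not in the other direction, as for 45.6% of all tested genes. For Glyma.04G050200 the groups overlapped, with 6.76, 16.2 and 7.39 scaled FPKM at 24h and 8.44, 5.92 and 5.403 at 48h. The high 24h library was replicate 2 in both loci, and also in Glyma.10G221500 (24.1 scaled FPKM against 10.7 and 5.79) and Glyma.20G170000 (7.09 against 2.13 and 0.721). Glyma.12G060200 was under the filter, with 3.01 scaled FPKM in the same library and at most 0.727 in the other 5. Glyma.04G166300 had 5.44, 5.25 and 2.89 scaled FPKM at 24h and 7.23, 6.33 and 5.78 at 48h (limma adjusted p = 0.190), and Glyma.06G196200 had 4.799, 7.77 and 6.41 at 24h and 9.74, 6.77 and 7.17 at 48h (limma adjusted p = 0.379).

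Most loci of the nodulation list were low or undetected at both ages. Of its 10 loci, 4 were listed at 0 in all 6 libraries and another 4 were under the filter. This left 2 that were tested, and 0 passed, against 13.7% of all tested genes. Of all 56044 IDs, 10738 were listed at 0 in all 6 libraries and 30444 were tested. Glyma.02G270800 had 24.4, 13.0 and 23.2 scaled FPKM at 24h and 19.98, 28.4 and 22.1 at 48h (log2 change 0.24, interval -0.38 to 0.87). Glyma.11G063100 had 32.4, 17.7 and 23.0 scaled FPKM at 24h and 20.6, 29.8 and 24.9 at 48h (log2 change 0.07, interval -0.52 to 0.65). Both are published as genes for Nod factor receptors, the proteins with which legume root hairs perceive rhizobia, and for both the groups overlapped. Among the loci under the filter, Glyma.14G001600 had 0.766, 2.51 and 1.59 scaled FPKM at 24h and 0.579, 0.389 and 0.625 at 48h, all lower, and Glyma.04G000600 had 0.621, 0.754 and 0.650 at 24h and 0.855, 0.942 and 0.903 at 48h, all higher. With no filter, 7416 of 45306 genes were all lower at 48h and 9245 all higher.

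The reference list, of 7 loci published as steady genes for normalizing soybean expression, held genes called in both directions. Over all genes, 1 of 7 passed as higher and 2 as lower at 48h, against 7.69% and 6.06% of all tested genes, and the median log2 change of the list was -0.72, but 0.11 after quantile normalization. Without 24h replicate 1 these counts were 1 and 3, without 24h replicate 3 they were 0 and 2, and with any other library left out 0 and 0. Of all tested genes, 29.4% were called without 24h replicate 1, 11.7% without 24h replicate 3 and at most 0.0591% in the rest. The counts of 0 and 0 therefore say little about this list. Glyma.03G137100 rose by 1.30 ± 0.35 log2 units (SE, limma adjusted p = 0.0468), from 14.6, 5.63 and 6.63 scaled FPKM at 24h to 23.4, 27.7 and 15.8 at 48h. Glyma.02G276600 had 213, 244 and 321 scaled FPKM at 24h and 128, 146 and 127 at 48h (log2 change -0.93 ± 0.23 SE, limma adjusted p = 0.0418). Glyma.18G290800 had 209, 211 and 228 scaled FPKM at 24h and 117, 149 and 128 at 48h (log2 change -0.72 ± 0.20 SE, limma adjusted p = 0.0489). The most abundant loci of the list did not pass, and their 48h libraries all lay below their 24h libraries, as for 22% of all tested genes. Glyma.17G186600 had 1529, 2128 and 1810 scaled FPKM at 24h and 972, 983 and 1159 at 48h, and Glyma.20G141600 had 522, 788 and 837 at 24h and 356, 373 and 422 at 48h (limma adjusted p = 0.0797 and 0.0595). These 4 loci with negative changes all belong to the level class of at least 100 scaled FPKM, whose median change was -0.77. After quantile normalization Glyma.17G186600 turned to 0.11 and the other 3 had changes of -0.03, -0.24 and -0.02, none of them called, while Glyma.12G051100 was called higher (log2 change 0.89, limma adjusted p = 0.0464), so that 2 of 7 passed as higher and 0 as lower. The remaining loci were Glyma.12G051100, with 81.4, 66.9 and 56.8 scaled FPKM at 24h and 86.8, 92.5 and 85.0 at 48h, all higher, and Glyma.12G020500, with 61.6, 42.5 and 51.2 at 24h and 52.9, 60.3 and 52.3 at 48h (limma adjusted p = 0.202 and 0.728).

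**Figure D4:**
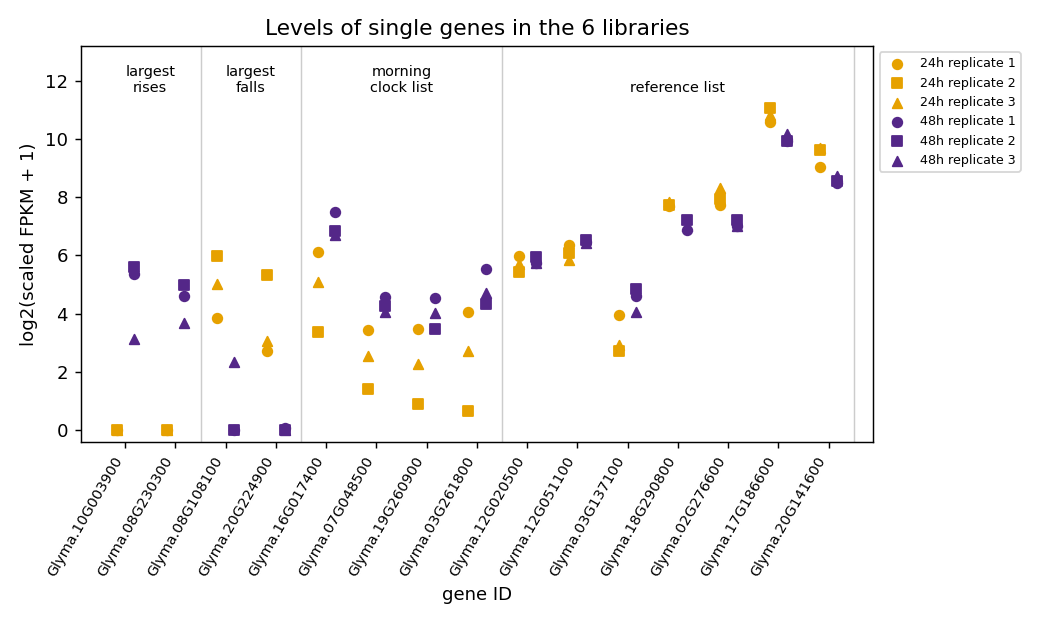
Points give log2(scaled FPKM + 1) (y) of each gene ID (x) in the 24h libraries (orange) and 48h libraries (purple), with the replicate as the marker shape. The 4 loci of the morning clock list are higher in every 48h library, with 24h replicate 2 lowest, and the 4 most abundant reference loci are lower in every 48h library after median-of-ratios scaling, though 1 of these changes turns to 0.11 after quantile normalization.

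The genes that separate 48h from 24h were then read in the 12h libraries, labelled 276 hours after sowing, which were not used to call them. Of the 2340 genes called higher at 48h, 90.8% lay above the midpoint of the 24h and 48h means in 12h replicate 1 and 87.4% in 12h replicate 3, but 25.9% in 12h replicate 2. Of the 1846 genes called lower, 83.0% and 77.0% lay below the midpoint in 12h replicates 1 and 3 and 4.01% in 12h replicate 2. The youngest group was thus split over these genes, with 12h replicates 1 and 3 on the 48h side and 12h replicate 2 on the 24h side. In 12h replicates 1 and 3 these levels were therefore not ordered by age. Over the genes called lower, 12h replicate 2 lay beyond the 24h group, with a median log2 level of 6.24 against 4.94 to 5.45. The share of the FPKM sum held by the 1377 most abundant genes moved with this split, at 55.6%, 78.5% and 48.7% in 12h replicates 1, 2 and 3. The 4 loci of the morning clock list differed from this pattern. The labels do not state the hour of sowing. If it was the same for all plants, the 12h group was collected at another hour of the day than the 24h and 48h groups. Age and hour of the day can then not be told apart in the 12h values of these loci. Glyma.16G017400 had 2.17, 5.31 and 4.23 scaled FPKM in the 12h libraries, below every 24h library. So did Glyma.19G260900, with 0.0505, 0.0872 and 0.268, and Glyma.03G261800, with 0.0325, 0 and 0.0723. Glyma.07G048500 had 0.589, 1.56 and 1.55 at 12h, the higher 2 close to the 1.63 of 24h replicate 2. The 12h values were scaled by factors from all 9 libraries and the 24h values by factors from 6. For 24h replicate 2 these factors were 1.06 and 0.986, so the order of such close values cannot be read from them.

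Each of the 6 libraries was also placed between the groups on genes chosen without it. The 1000 genes ranked first by p in each direction were taken from the fit that left the library out, and its level was put on a scale where 0 is the mean of the other 24h libraries and 1 that of the other 48h libraries. On genes higher at 48h, the 48h libraries had median positions of 1.09, 0.972 and 0.678, and on genes lower at 48h of 1.03, 0.862 and 0.830. 24h replicates 2 and 3 lay at -0.193 and 0.2002 on the first set and at 0.160 and -0.403 on the second. 24h replicate 1 lay midway, at 0.572 and 0.482, and 66.9% of the genes higher at 48h and 45.1% of those lower at 48h were nearer to the 48h mean in it. Choosing genes by their difference widens the gap between the group means, so a left-out library may fall inside it for that reason too.

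**Figure D5:**
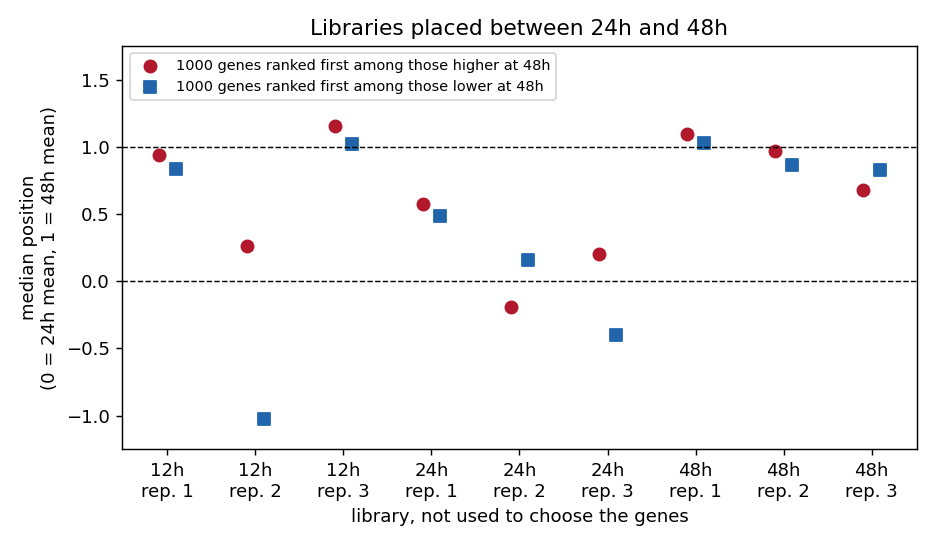
For each library (x), points give its median position between the 24h mean (0) and the 48h mean (1) over the 1000 genes ranked first as higher (red circles) or lower (blue squares) at 48h, with the library itself left out of the choice. The 48h libraries and 12h replicates 1 and 3 lie between 0.678 and 1.15, 24h replicate 1 near the middle at 0.482 and 0.572, and the other 24h libraries and 12h replicate 2 at 0.259 or below. On the genes lower at 48h, 12h replicate 2 lies at -1.03, beyond the 24h mean.

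The genes called were spread over the genome as their IDs write it. On the 20 chromosomes, 6.80% to 8.55% of the tested genes were called higher and 4.99% to 7.79% lower. Where a gene was called higher, the next ID in the table, if tested, was called higher in 8.10% of 1321 cases, against 7.69% of all tested genes. After a gene called lower the next was called lower in 8.93% of 1165 cases, against 6.06%. In the opposite direction, the next was called lower after a higher gene in 6.28% and higher after a lower gene in 6.70%. These cases come from 18248 adjacent pairs with both genes tested, so the shares over all tested genes are not quite a like base. Neighbouring near-identical copies share reads, so the separate values of such genes are uncertain.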

How the data were processed

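RNA was sequenced from TruSeq libraries, per the labels' protocols. The authors deposited 1 table of FPKM with a column per library, and all 9 columns were assigned to samples by their names. The submitters' processing notes list TopHat2 2.1.0 with Cufflinks 2.2.1. The genome build and gene models are not stated there or in the labels. Whole reads were not recovered: over 15 pairs of libraries, 1.68% to 5.74% of genes under 0.2 FPKM lay within 1% of the most common ratio, so no counting intervals are given. FPKM were divided by median-of-ratios factors from tested genes above 0 in all 6 libraries (0.731 to 1.11). The test was limma 3.58.1 in R 4.3.3, with an intensity trend and a prior of 4.21 degrees of freedom, on log2(scaled FPKM + 1); fold changes on this scale understate those of low genes, and intervals are limma's at 95%. It was tested on simulated data. For the 12h values, factors came from all 9 libraries. Genes are named by size of change (the 2 largest rises and falls with a mean of at least 5 scaled FPKM and no overlap) or as list members. The comparison, the lists and the scaling were chosen with earlier results of these data known. Unadjusted counts, level classes under other settings and library positions were added after seeing the data. No sequences are shown.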

Additional observations from a re-analysis of the deposited data

How the results depend on the processing

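Calls at an adjusted p under 0.05 (limma) were 4186, with 2340 higher and 1846 lower at 48h. Leaving out 1 library gave 0 to 8941 calls, 0 to 4879 of them higher and 0 to 4062 lower, and 13890 genes without overlap became 15203 to 18229. Fewer libraries in a group make a lack of overlap easier to reach, so this rise by itself says little. A pseudocount of 0.1 gave 2641 calls, of which 1335 were higher. With no filter on low values (45306 genes) the calls were 0, with 0 higher and 0 lower and 13452 at an unadjusted p under 0.05. They were also 0, 0 and 0 with all 9 libraries in 1 fit. FPKM as deposited gave 4490 higher and 1163 lower. A filter at 5 FPKM left 8788 genes without overlap, out of 18111 tested. The causes of the other changes were not tested. A pseudocount of 0.25, the filter at 5 FPKM, quantile normalization, no trend, robust moderation, array weights, 1 weight per group and the replicate block gave 3030 to 5399 calls, within 1.5 times. The labels do not say what the replicate numbers share, and deviations of same-numbered libraries correlated at 0.0098, -0.107 and 0.0535, so the numbers were not taken as pairs; the replicate block gave 3030 calls, 1576 higher. With 1 library left out, log2 changes of uncalled loci ran from -0.60 to 0.35 for Glyma.10G221500, -0.73 to 0.39 for Glyma.20G170000, -0.039 to 0.40 for Glyma.02G270800, -0.14 to 0.28 for Glyma.11G063100 and -0.035 to 0.24 for Glyma.12G020500, each turning sign without 24h replicate 2. Glyma.10G221500 also turned as deposited (0.11) and without 48h replicate 1 (0.11), Glyma.11G063100 without 48h replicate 2 (-0.059) and Glyma.17G186600 after quantile normalization (0.11). Called list loci passed in 4 to 10 of 18 other settings: Glyma.02G276600 in 10, Glyma.03G137100 and Glyma.07G048500 in 9 each, and Glyma.18G290800 in 4.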
